A study of Mus musculus with 24 samples.

Results

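Ribosome biogenesis factors are the proteins that make, modify and fold ribosomal RNA and assemble the ribosomal subunits, and 37 of them were followed here through crypts and villi of the mouse small intestine. They were listed by name, and for each gene the probe set brightest on average across the arrays was taken. Of the 37 listed genes, 36 were measured, out of 18193 genes in all. Mrto4 was left out because its probe set is annotated to several genes. The measured members comprised 3 genes of RNA polymerase I transcription, 4 of the box C/D particle, 1 particle chaperone, 4 of the H/ACA particle, 10 of the small subunit, 10 of the large subunit and 4 nucleolar proteins with broad roles.

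Total RNA of isolated crypts and of isolated villi was hybridised to 24 Affymetrix arrays, 3 for each of 8 groups, from mice of 4 genotypes. The genotypes were wild type (WT), Rb-/- (called Rb), E2f1-/-;E2f2-/-;E2f3-/- (called TKO) and E2f1-/-;E2f2-/-;E2f3-/-;Rb-/- (called QKO). Rb is a pocket protein that binds E2f transcription factors, and E2f1, E2f2 and E2f3 are the E2fs classed as activators of division genes. All mice, the controls included, were of a mixed C57BL/6;FVB strain, 2 months old, and had received an intraperitoneal injection of beta-napthoflavone (spelled as in the labels) 7 days before the tissue was taken. The labels name no Cre, promoter or floxed allele, so the cells in which each gene was lost are not given. No label states that a group's 3 arrays are separate animals. By Xist and Eif2s3y the arrays of TKO crypts, TKO villi and Rb villi each came from both sexes and so from more than 1 animal, while in the other groups the spread between arrays may be technical. The p-values rest on 1 estimate of the spread that all 8 groups share.

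A ribosome begins in the nucleolus, where RNA polymerase I transcribes a long precursor of ribosomal RNA. Small nucleolar RNA particles then guide its chemical modification, box C/D particles by methylation and H/ACA particles by pseudouridylation, while processing factors cut and fold it into the small and large subunits. The pathway is costly and is known for being high in growing, dividing cells, and many of its genes are classic Myc targets. The DNA word that Myc binds is the E-box. In the intestine, dividing cells sit in the crypts and differentiated cells cover the villi.

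The promoters of 30 of the 36 measured members were found among RefSeq windows on GRCm38.p6, each running from 250 bases before to 50 bases after a gene's start. They were searched on both strands for the E-box CACGTG, which Myc binds, and for 2 written forms of the E2f binding word, TTCCCGC and TTGGCGC. An E-box was present in 7 of the members' 34 windows, or 20.6%, and in 7.15% of all 32851 windows. TTCCCGC was present in 3 of the members' windows and TTGGCGC also in 3, which is 8.82% each, while 4.6% and 2.45% of all windows held them. No member's window had words that overlapped. The E-box holders were Imp4, Nop2, Pes1, Rrn3, Tsr1, Utp20 and Wdr43. TTCCCGC lay in the windows of Nhp2, Nolc1 and Nop58, and TTGGCGC in those of Ncl, Nop10 and Rrn3. Npm1, Fbl, Rrs1, Bop1, Rrp12 and Nol6 had no entry. A match is a string of letters and shows no binding, and a window without it says only that these letters are not in it.

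The windows of 3 genes are printed because they belong to members on which the results turn and that hold at least 1 of the words. They are written 5′ to 3′ in the direction of the gene, with the words in capitals. That of Rrn3, the factor that brings RNA polymerase I to the ribosomal DNA, lies on the plus strand at chr16:13780449-13780748. Counted from the gene's start, it holds E-boxes at positions -215 and -48 and the reverse complement of TTGGCGC at -225. That of Ncl, encoding nucleolin, lies on the minus strand at chr1:86359406-86359705 and holds the reverse complement of TTGGCGC at -224. That of Pes1, a scaffold of the large subunit, lies on the plus strand at chr11:3963725-3964024 and has its E-box just after the start.
Rrn3: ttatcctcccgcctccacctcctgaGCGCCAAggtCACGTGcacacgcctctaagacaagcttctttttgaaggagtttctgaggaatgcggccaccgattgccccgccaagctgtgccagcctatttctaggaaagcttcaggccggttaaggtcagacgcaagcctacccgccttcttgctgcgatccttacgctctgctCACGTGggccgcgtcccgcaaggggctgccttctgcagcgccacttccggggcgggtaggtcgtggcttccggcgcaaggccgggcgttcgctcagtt
Ncl: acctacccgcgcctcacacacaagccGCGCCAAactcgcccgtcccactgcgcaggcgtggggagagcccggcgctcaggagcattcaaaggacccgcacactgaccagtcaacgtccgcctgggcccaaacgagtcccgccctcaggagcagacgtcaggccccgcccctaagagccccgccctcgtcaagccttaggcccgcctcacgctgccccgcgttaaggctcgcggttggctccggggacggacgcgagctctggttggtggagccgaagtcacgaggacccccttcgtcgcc
Pes1: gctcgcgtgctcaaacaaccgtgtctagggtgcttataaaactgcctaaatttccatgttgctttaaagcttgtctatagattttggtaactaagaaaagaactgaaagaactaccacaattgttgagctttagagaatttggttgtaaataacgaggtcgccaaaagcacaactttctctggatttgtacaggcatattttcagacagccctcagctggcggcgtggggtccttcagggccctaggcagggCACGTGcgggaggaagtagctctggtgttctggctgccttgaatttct

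Values are deposited log2 expression values per probe set, so a difference of 1 is a doubling, and a gene was called changed at an adjusted p under 0.05 from limma. Levels are compared only within a gene, since probe sets differ in how strongly they bind. The members' mean per array was 9.30, 9.25 and 8.94 in WT crypts and 7.66, 7.49 and 7.41 in WT villi. In Rb it was 8.99, 9.37 and 8.55 in crypts and 7.91, 8.09 and 8.18 in villi. In TKO it was 9.16, 9.50 and 9.11 in crypts and 8.61, 8.63 and 8.18 in villi, and in QKO 9.33, 9.49 and 9.31 in crypts and 8.35, 8.13 and 8.0 in villi. Every crypt array thus stood above every villus array except that Rb crypts 3 (8.55) stood below TKO villi 1 and 2. Among villi the 3 WT arrays were the lowest, and TKO villi 2 and 1 were the highest. The mean of 11 marker genes of dividing cells, plotted with it, had another order in villi, with Rb the highest.

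**Figure D1:**
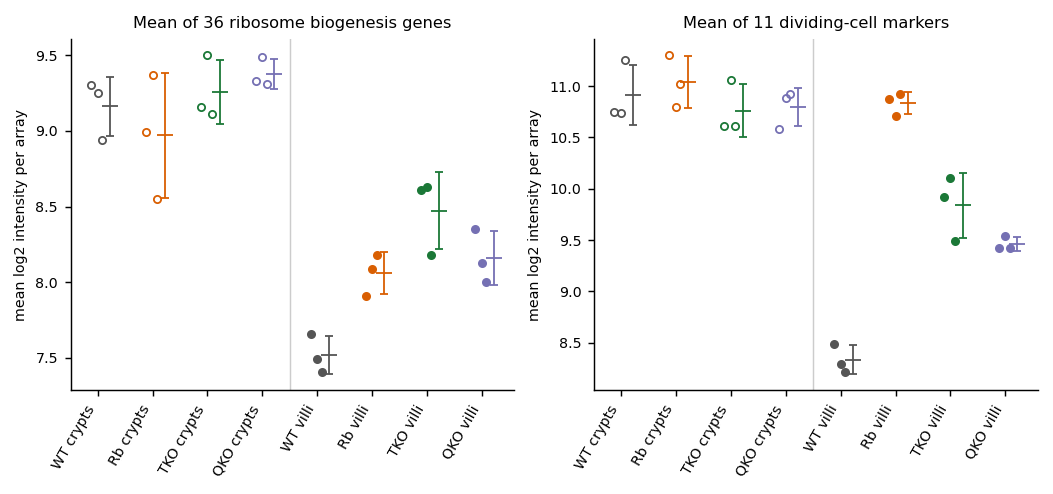
Mean log2 level of the 36 members (left) and of 11 dividing-cell marker genes (right) on each of the 24 arrays, by group, open points for crypts and filled for villi, with each group's mean and SD. The members' means in villi run from 7.41 on a WT array to 8.63 on a TKO array, and all WT villus arrays lie under all others.

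Several arrays stood apart or went against their labels. Rb1, read by a probe set that may lie outside the deleted part, was 8.46 on WT crypts 3 against 10.31 and 10.59 on the other WT crypt arrays, and 10.25 on Rb crypts 2 against 8.23 and 8.87 on the other Rb crypt arrays. WT crypts and Rb crypts therefore mean the arrays so labelled, and counts and medians of crypt comparisons are also given without both. In villi Rb1 was 8.84 to 9.36 in Rb and 8.28 to 8.77 in QKO, all below the 10.70 to 10.93 of WT. E2f2 was 7.94 to 8.45 in TKO crypts, 8.42 to 8.52 in QKO crypts and 9.0 to 9.47 in WT crypts. The E2f1 and E2f3 probe sets overlapped between these groups, as did E2f2 and E2f3 in villi. E2f1 in villi was 6.87 to 7.17 in TKO, above the 6.61 to 6.71 of WT, and 6.46 to 7.26 in QKO. These values check nothing if the probe sets lie outside the deletions. Poly-A controls, spiked bacterial transcripts, averaged 9.70 to 11.89 on the TKO and QKO arrays and 5.44 to 7.13 on the WT and Rb arrays, so for TKO or QKO against WT or Rb the genotype and whatever set these controls apart cannot be told apart. These controls averaged 11.28 to 11.89 in QKO villi, above the 10.52 to 10.77 of TKO villi and the 9.70 to 10.37 of QKO crypts. In TKO crypts they averaged 10.26 to 11.55. The part of these differences was not tested. By Xist and Eif2s3y all WT arrays were female and all QKO arrays male. The gap between the 3′ and 5′ probe sets of Actb and Gapdh, a sign of RNA quality, was 1.21 and 0.18 on WT villi 1 and 1.36 and 0.27 on WT villi 3, against 0.80 and -0.13 on WT villi 2. It was 0.86 to 0.91 for Actb and -0.08 to -0.06 for Gapdh in Rb villi, 0.72 to 1.03 and at most 0.03 in TKO villi, 1.03 to 1.31 and 0.12 to 0.28 in QKO villi, and 0.75 to 0.96 and -0.17 to -0.14 in WT crypts. WT villi 3, with the widest Actb gap of all arrays, had the lowest mean of the members (7.41). WT villi 1 and 2, with Actb gaps of 1.21 and 0.80, had means of 7.66 and 7.49. The part of RNA quality was not tested. In WT, 6 of 6 stem cell and 5 of 5 Paneth cell markers were lower in villi than in crypts and 7 of 9 enterocyte markers were higher.

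In WT tissue nearly the whole pathway was lower in villi. Of the 36 members 34 were lower and 0 higher, with a median log2 difference of -1.63, about 3.10-fold, while the median of all genes was 0.08. Over all genes 18.6% were called lower in this comparison. The crypt and villus arrays did not overlap for 35 members, which was so, in the same direction, for 23.3% of all genes. Both compartments hold mixtures of cells, and in bulk RNA fewer cells of a type and less RNA per cell cannot be told apart. Dividing-cell markers were lower along with the members, 11 of 11 with a median of -2.74, and their part in the result was not tested. Without WT crypts 3 and Rb crypts 2 the count was again 34, with a median of -1.79.

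The steepest falls were spread over several roles. Ftsj3, a methyltransferase whose yeast counterpart acts in large-subunit assembly, read 7.85, 7.69 and 7.46 in crypts and 5.25, 5.05 and 4.89 in villi. Nolc1, a chaperone of both particle classes, read 10.07, 9.64 and 9.57 in crypts and 7.54, 7.34 and 6.96 in villi. These genes had the largest falls of all members, -2.60 ± 0.21 (SE, 6.07-fold, adjusted p = 1.1e-08) and -2.48 ± 0.24 (5.58-fold, adjusted p = 8.8e-08), and for both the compartments were well apart. Ncl fell by 2.47 ± 0.23 and Npm1, encoding the nucleolar chaperone nucleophosmin, by 1.55 ± 0.16. The levels of Ncl were 12.61, 12.69 and 12.37 in crypts and 10.33, 10.30 and 9.63 in villi, and those of Npm1 were 12.22, 12.39 and 12.12 in crypts and 10.71, 10.80 and 10.56 in villi. The broad nucleolar group, which adds Gnl3 (nucleostemin) and the RNA helicase Ddx21, fell in 4 of 4 genes with a median of -1.90.

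Genes of both RNA-modifying particles fell as a body. All 4 box C/D genes were lower, with a median of -2.12: the methyltransferase Fbl (-1.91 ± 0.21), the core proteins Nop56 (-2.34 ± 0.22) and Nop58 (-2.33 ± 0.22), and Rrp9 (-0.78 ± 0.15), a U3 particle protein. Nop56 read 10.21, 10.34 and 9.92 in crypts and 7.98, 7.78 and 7.71 in villi, and Fbl 11.40, 11.53 and 10.97 against 9.50, 9.33 and 9.34. The 4 H/ACA genes were lower too, with a median of -2.06, led by the pseudouridine synthase Dkc1 (-2.46 ± 0.22, 5.51-fold, adjusted p = 4.8e-08). Dkc1 read 10.19, 9.87 and 9.65 in crypts and 7.59, 7.58 and 7.15 in villi, again without overlap. Gar1 and Nhp2, structural proteins of that particle, fell by 2.22 ± 0.22 and 1.89 ± 0.23, and Nop10, a small protein of its core, by 0.94 ± 0.15.

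Subunit assembly genes fell with a median of -1.91 for the large subunit, 10 of 10 genes, and of -1.36 for the small subunit, 9 of 10 genes. The Pes1 complex of large-subunit maturation was among them, with Pes1 at -2.21 ± 0.19, Bop1 at -1.07 ± 0.14 and Wdr12 at -1.84 ± 0.25. Pes1 read 9.55, 9.61 and 9.14 in crypts and 7.20, 7.42 and 7.05 in villi. Rrs1, which in yeast helps bring the 5S particle into the large subunit, read 9.55, 9.69 and 9.09 against 7.97, 7.85 and 7.68, a fall of 1.61 ± 0.26. Among small-subunit genes the processome component Utp20 fell the most, by 1.80 ± 0.21. Of RNA polymerase I genes, its second largest subunit Polr1b read 8.11, 7.75 and 7.59 in crypts and 6.04, 6.11 and 6.40 in villi (-1.63 ± 0.25), and its largest subunit Polr1a differed by -1.58 ± 0.22.

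Members outside the fall were Rrn3 and Nol6. Rrn3 read 8.01, 8.05 and 7.86 in crypts and 7.72, 7.63 and 7.33 in villi. All its villus arrays were under its crypt arrays, but the difference of -0.41 ± 0.18 had an adjusted p of 0.07. Nol6, a small-subunit processome protein, read 7.64, 7.79 and 7.68 in crypts and 7.69, 7.64 and 7.52 in villi, groups that overlap (-0.09 ± 0.13, adjusted p = 0.62). A further probe set of Nol6 gave -0.37 ± 0.15 with an adjusted p of 0.065 among all probe sets.

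Of 123 other genes of the pathway 108 were lower and 1 higher in WT villi, with a median of -1.07. Examples are Ruvbl2, an ATPase that helps assemble small nucleolar particles (-2.11 ± 0.17), and Exosc8 and Exosc7, subunits of the RNA exosome (-1.97 ± 0.17 and -1.39 ± 0.12). The higher gene was Sbds, which releases Eif6 from the large subunit. Particle assembly genes were lower in 7 of 7, exosome genes in 8 of 10 and further RNA polymerase I genes in 9 of 10, the last with a median of -0.78.

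**Figure D2:**
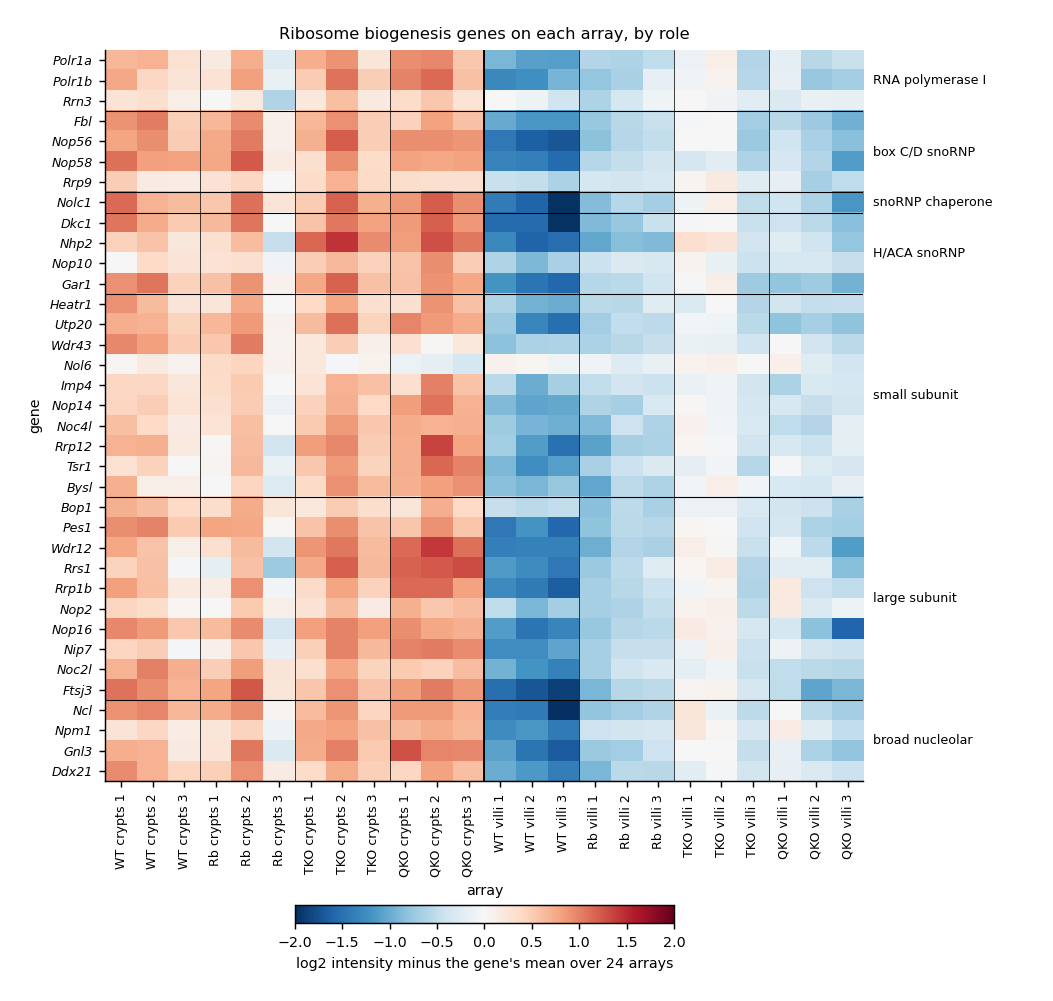
Log2 level of each of the 36 members (rows, grouped by role) on each of the 24 arrays (columns, by group), with the gene's mean over all arrays subtracted and colours ending at -2 and 2. Crypt columns are high and villus columns low for nearly all rows, with the 3 WT villus columns the lowest for most rows, while Nol6 and Rrn3 show little contrast.

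The pathway was also lower in villi of each mutant, by less at the median. In Rb the median was -0.93 and 34 members were lower, with 9.65% of all genes called lower. In TKO it was -0.80 with 32 members lower (8.99% of all genes), and in QKO -1.24 with 35 lower (19.9% of all genes). Of dividing-cell markers 2 of 11 were lower in Rb villi (median -0.21), 11 of 11 in TKO (-0.93) and 11 of 11 in QKO (-1.45). T cell markers were higher in villi in 7 of 7 in QKO (median 2.46) and 4 of 7 in TKO (1.45). In QKO 4 of 6 enteroendocrine, 4 of 6 goblet and 3 of 5 myeloid markers were also higher in villi, and 3 of 3 pancreatic acinar markers lower (-2.54). Stem cell markers were lower in 6 of 6 in Rb, 3 of 6 in TKO and 5 of 6 in QKO, and enterocyte markers higher in 6, 7 and 4 of 9. The part of none of these was tested. The Rb count was 18 without WT crypts 3 and Rb crypts 2, 18 without Rb crypts 2 alone and 21 without Rb villi 1, with a median of -0.67 without both. With sex as a covariate the Rb count was 24. In TKO the count was 8 without TKO crypts 2, 9 without TKO villi 3, and 4 without both TKO arrays numbered 3, on which the median was still -0.73. The smallest adjusted p among the TKO calls was 0.0041.

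The members with the smallest p-values are named first, and not every member fell by less than in WT. Bop1 fell by 1.11 ± 0.14 in Rb villi (adjusted p = 0.00013), against 1.07 in WT. In Rb villi Ftsj3 and Ddx21 fell by 1.43 ± 0.21 and 1.19 ± 0.18. In TKO the smallest p-values belonged to the H/ACA genes Nhp2 (-1.11 ± 0.23), Gar1 (-1.06 ± 0.22) and Nop10 (-0.71 ± 0.15), and in QKO to Ftsj3 (-1.73 ± 0.21), the processome protein Nop14 (-1.26 ± 0.15) and Utp20 (-1.62 ± 0.21). Not called were Rrs1 and Rrn3 in Rb, Nol6, Nop2, Rrn3 and Wdr43 in TKO, and Nol6 in QKO. Rrn3 was lower by 0.59 ± 0.18 in QKO villi, against 0.41 in WT. Of the other pathway genes, 72 of 123 were lower in Rb, 74 in TKO and 108 in QKO, and 1 was higher, in QKO.

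**Figure D3:**
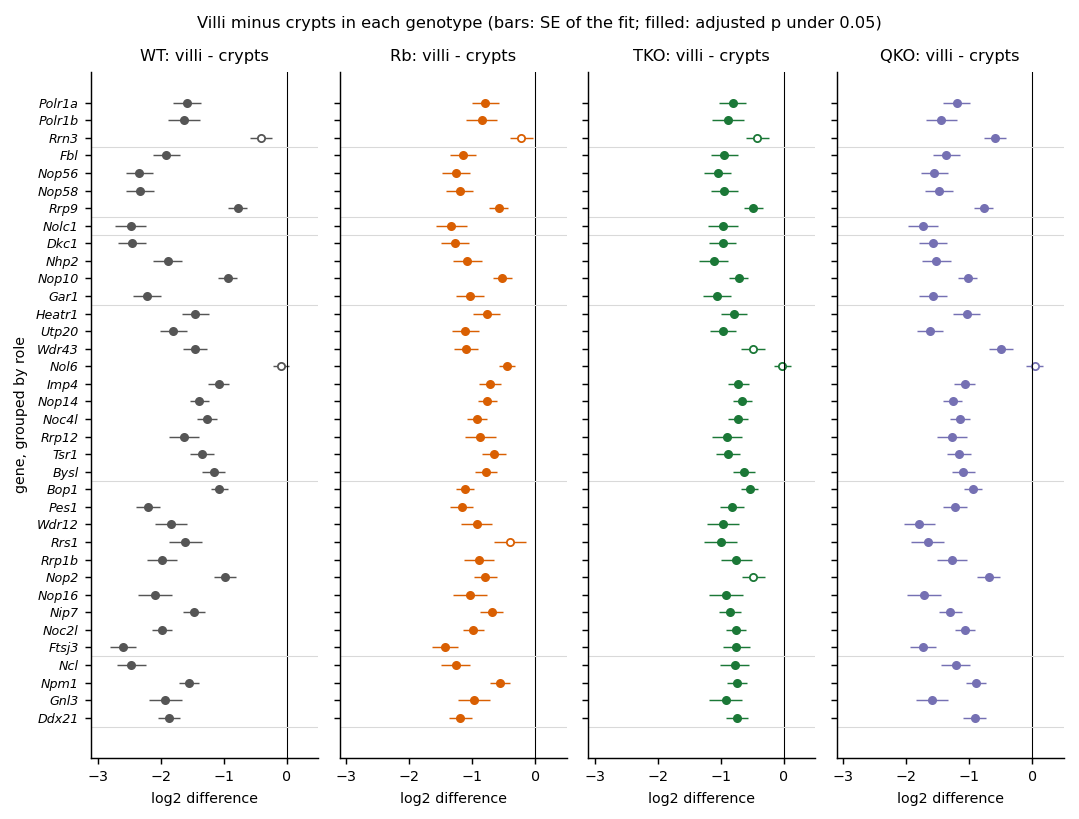
Log2 difference of villi minus crypts for each of the 36 members in WT, Rb, TKO and QKO, by role, with SE bars; a filled marker is a difference called at an adjusted p under 0.05. Nearly all points lie under 0, with medians of -1.63 in WT, -0.93 in Rb, -0.80 in TKO and -1.24 in QKO.

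Part of the pathway was higher in Rb villi. Against WT villi, 15 members were higher and 0 lower, with a median of 0.61 (1.53-fold), while 8.59% of all genes were called higher and their median was -0.08. The arrays of the genotypes did not overlap for 28 members, as for 17.0% of all genes in that direction. The calls were Nop56, Nop58, Nolc1, Dkc1, Gar1, Nop14, Tsr1, Pes1, Rrp1b, Nip7, Noc2l, Ftsj3, Ncl, Npm1 and Gnl3. The count was 8 without WT villi 3, 10 with sex as a covariate, 25 when only the groups compared were fitted and 25 with array weights. All 11 dividing-cell markers were higher, by a median of 2.41, 1 of 4 tuft cell markers was higher (median 0.35), and 3 of 6 enteroendocrine (-0.88) and 1 of 5 endothelial markers (-0.28) were lower. Their part was not tested.

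The largest rises were in Ftsj3 and Dkc1. Ftsj3 read 5.85, 6.18 and 6.24 in Rb villi, all above the 5.25, 5.05 and 4.89 of WT villi, a difference of 1.02 ± 0.21 (2.03-fold, adjusted p = 0.0014). Dkc1 read 8.24, 8.36 and 8.68 in Rb villi (0.99 ± 0.22, adjusted p = 0.0037). Npm1 had the smallest p, with 11.55, 11.60 and 11.64 in Rb villi and a rise of 0.91 ± 0.16 (adjusted p = 0.00027). Levels in Rb villi stayed under those of Rb crypts for all 3 genes. By role, calls fell in 2 of 4 box C/D genes, 2 of 4 H/ACA genes, 5 of 10 large-subunit genes, 3 of 4 broad nucleolar genes, 2 of 10 small-subunit genes (Nop14 and Tsr1, a late maturation factor) and 0 of 3 RNA polymerase I genes. Polr1b in Rb villi, at 6.56, 6.69 and 7.17, was above WT on every array, but its difference of 0.62 ± 0.25 had an adjusted p of 0.1.

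In villi without E2f1, E2f2 and E2f3 most of the pathway was higher. Against WT villi 31 members were higher and 0 lower in TKO, with a median of 0.96 (1.95-fold), where 6.21% of all genes were called higher and the median of all genes was -0.03. All 36 differences lay above 0, and for 33 members the arrays did not overlap (14.4% of all genes). Leaving out an array left between 21 and 31 members called. The TKO and WT arrays also lay on opposite sides of the split in poly-A controls. Dividing-cell markers were higher in 9 of 11, by a median of 1.57, and goblet cell markers lower in 4 of 6 (median -1.18). Of stem cell markers 1 of 6 was higher, and their mean was 7.84, 7.97 and 7.15 in TKO villi against 7.20 to 7.38 in WT villi. The mean of the 5 Paneth cell markers was 12.11, 12.40 and 9.66 in TKO villi and 11.26 to 11.89 in WT villi, with none called. TKO villi 3 was thus the lowest of the TKO villus arrays for both of these lists and for the members. The part of these markers was not tested. Mcm5, a replication gene, rose by 2.34 ± 0.17 but Mki67, the gene of the Ki-67 antigen, differed by 0.51 ± 0.29 and was not called.

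Ftsj3 led again, at 6.81, 6.83 and 6.42 in TKO villi, a rise of 1.62 ± 0.21 (3.08-fold, adjusted p = 2.8e-05). Nhp2 read 10.77, 10.68 and 10.04 in TKO villi and 9.13, 8.82 and 8.90 in WT villi, a rise of 1.55 ± 0.23 (2.92-fold, adjusted p = 0.00013). Dkc1 followed with 9.10, 9.11 and 8.67 in TKO villi (1.52 ± 0.22). The lowest TKO array, number 3 in each of these genes, still lay above the highest WT array. Nolc1 (8.84, 9.07 and 8.43) and Ncl (11.95, 11.58 and 11.19) rose by 1.50 ± 0.24 and 1.49 ± 0.23. Npm1, which lay between 11.64 and 12.20 in TKO villi and at most at 10.80 in WT villi, rose by 1.26 ± 0.16 with the smallest adjusted p of these, 2e-05.

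By role, the rise took in 4 of 4 box C/D genes, 4 of 4 H/ACA genes, 4 of 4 broad nucleolar genes, 9 of 10 large-subunit genes, 7 of 10 small-subunit genes and 2 of 3 RNA polymerase I genes. Nop56 read 9.43, 9.41 and 8.67 in TKO villi (1.35 ± 0.22), Fbl 10.46, 10.50 and 9.80 (0.86 ± 0.21), Pes1 8.66, 8.62 and 8.22 (1.27 ± 0.19) and Rrs1 9.15, 9.26 and 8.53 (1.14 ± 0.26). Polr1b read 7.27, 7.40 and 6.77 (0.96 ± 0.25, adjusted p = 0.015). Not called were Bop1 (0.31 ± 0.14), Heatr1 (0.55 ± 0.21), Wdr43 (0.47 ± 0.19), Nol6 (0.05 ± 0.13) and Rrn3 (0.08 ± 0.18), where Heatr1 and Wdr43 act early in small-subunit processing. Rrn3 read 7.74, 7.66 and 7.52 in TKO villi and thus overlapped WT. Among the other pathway genes 52 of 123 were higher and 0 lower, with a median of 0.51, including the H/ACA assembly factor Naf1 (1.57 ± 0.22), and Rrp15 (1.41 ± 0.21) and Rsl1d1 (1.14 ± 0.17), nucleolar proteins of large-subunit production.

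**Figure D4:**
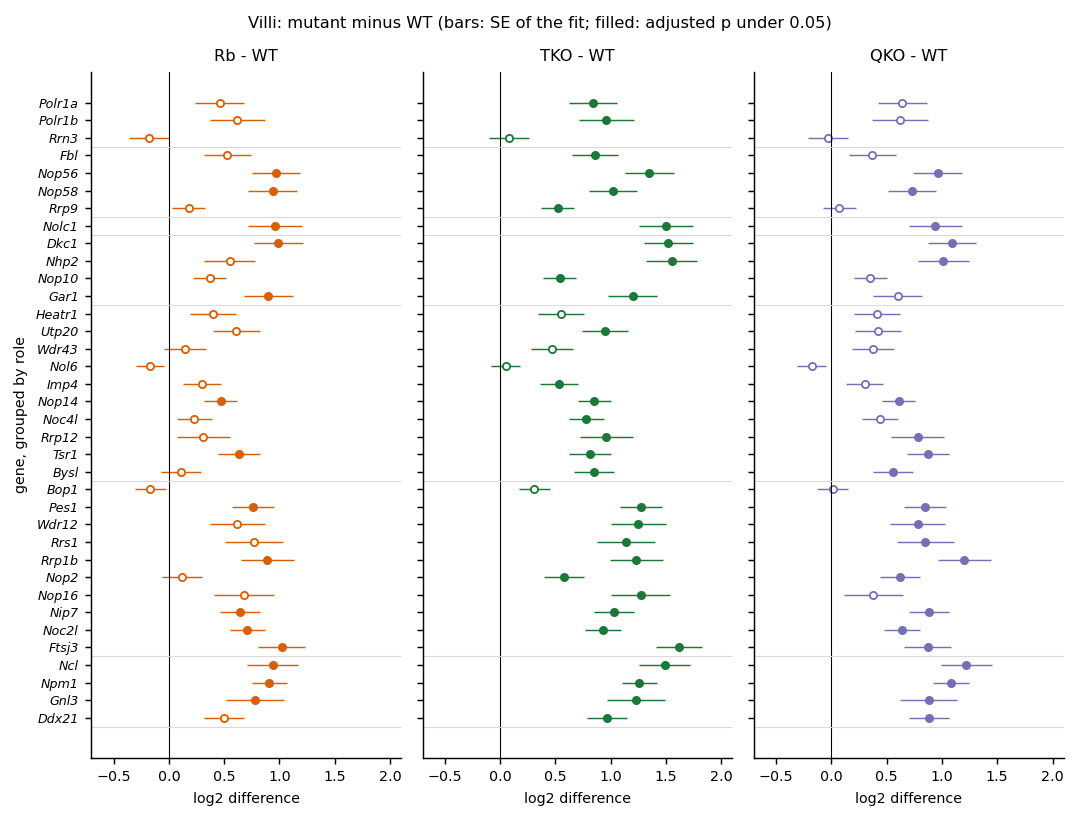
Log2 difference from WT villi for each of the 36 members in Rb, TKO and QKO villi, by role, with SE bars; a filled marker is a difference called at an adjusted p under 0.05. TKO points run from 0.05 to 1.62, and 15, 31 and 21 members are called in Rb, TKO and QKO.

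Villi without all 4 genes were also higher than WT in much of the pathway. In QKO 21 members were higher than in WT and 0 lower, with a median of 0.64 (1.56-fold), where 11.6% of all genes were called higher. Arrays did not overlap for 29 members (18.8% of all genes). The smallest p-values belonged to Npm1 (12.11, 11.72 and 11.48, a rise of 1.08 ± 0.16, adjusted p = 8.5e-05), Ncl (11.72, 11.17 and 11.02, a rise of 1.22 ± 0.23) and Rrp1b, a nucleolar protein of large-subunit processing (7.51, 6.91 and 6.82 against 6.05, 5.91 and 5.68 in WT, a rise of 1.20 ± 0.24). For all 3 genes each QKO array lay above each WT array. The broad nucleolar genes were higher in 4 of 4, large-subunit genes in 8 of 10, small-subunit genes in 4 of 10, both particles in 2 of 4 each, and RNA polymerase I genes in 0 of 3. The count was 12 without WT villi 3, and 10 with sex as a covariate, all WT arrays being female and all QKO arrays male. Of 11 dividing-cell markers 7 were higher (median 1.74), 6 of 6 enteroendocrine markers were higher (median 1.78), and 3 of 5 myeloid and 1 of 7 T cell markers too, while 3 of 6 goblet markers were lower (median -0.49). Their part was not tested.

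These 3 comparisons share the WT villus arrays, so their values are set side by side and not correlated. Ftsj3 differed from WT by 1.02, 1.62 and 0.87 in Rb, TKO and QKO villi, Dkc1 by 0.99, 1.52 and 1.09, Npm1 by 0.91, 1.26 and 1.08, and Nop56 by 0.97, 1.35 and 0.96. Nhp2 differed by 0.55, 1.55 and 1.01, and Fbl by 0.53, 0.86 and 0.37. Direct tests between the mutants found few members. In TKO against Rb villi all 36 differences were above 0, with a median of 0.38, and 4 members were called higher (4.25% of all genes). These were Nhp2 (1.0 ± 0.23, adjusted p = 0.0065), Bysl, a small-subunit maturation factor (0.74 ± 0.18), Noc4l, which in yeast works with Nop14 in small-subunit export (0.55 ± 0.16), and Bop1 (0.48 ± 0.14). Arrays did not overlap for 17 members (19.3% of all genes). The count was 1 without Rb villi 1 or without TKO villi 2, 2 without Rb villi 3, without TKO villi 1 or with probe sets averaged per gene, and 18 with array weights. Dividing-cell markers went the other way, 7 of 11 lower in TKO than in Rb with a median of -0.95, and 5 of 6 goblet (-1.36) and 2 of 4 tuft cell markers (-0.80) were lower too. Their part was not tested.

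Few members differed between QKO villi and Rb or TKO villi. Against Rb villi the median was 0.10 and 1 member, the rRNA methyltransferase Nop2, was higher (0.51 ± 0.18, adjusted p = 0.0470), where 14.2% of all genes were called higher. Nop2 read 8.81, 8.35 and 8.53 in QKO villi and 7.98, 8.02 and 8.16 in Rb villi, without overlap. Dividing-cell markers were lower in 10 of 11 in the same comparison, by a median of -1.49, and goblet cell markers in 5 of 6 (-0.79). Higher in QKO than in Rb villi were 6 of 6 enteroendocrine markers (median 2.66), 3 of 7 T cell, 3 of 5 myeloid and 3 of 7 stromal markers. Their part was not tested. Against TKO villi the median was -0.29 and 2 members were lower, Ftsj3 (6.25, 5.71 and 5.85 in QKO; -0.75 ± 0.21, adjusted p = 0.031) and Nop16 (7.44, 6.97 and 6.21 in QKO against 7.95, 7.88 and 7.45 in TKO; -0.89 ± 0.27, adjusted p = 0.0499), where 1.17% of all genes were called lower. Nop16 is a nucleolar protein of large-subunit assembly. Against TKO villi 6 of 6 enteroendocrine (1.95), 4 of 6 goblet (0.73) and 3 of 5 myeloid markers (0.93) were higher, and their part was not tested. Against Rb the call was lost without any 1 of 12 arrays, every Rb villus array among them. Against TKO the count was 0 without TKO villi 1, TKO villi 2, QKO villi 2 or QKO villi 3, 5 without TKO villi 3, and 1 without any 1 of 16 other arrays.

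**Figure D5:**
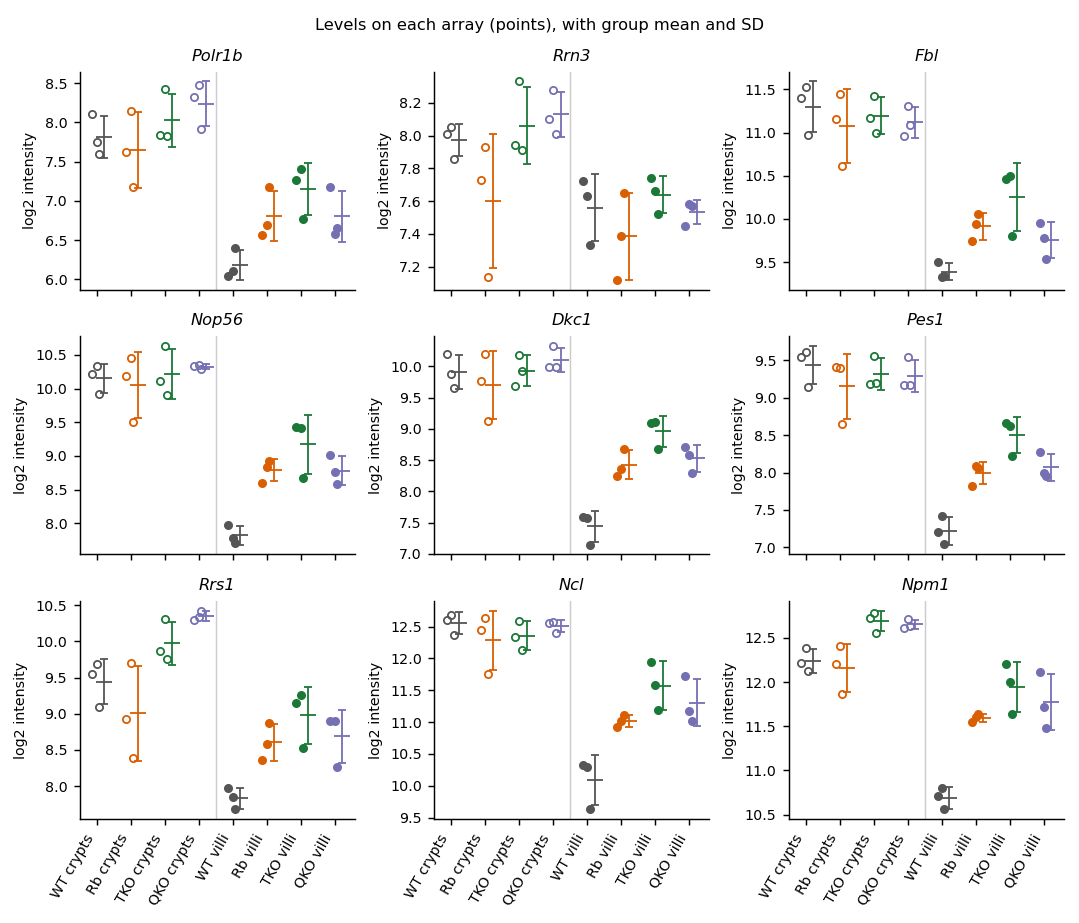
Log2 level on each of the 24 arrays of 9 members, with each group's mean and SD (n = 3); panels have their own scales. WT villi are the lowest group for every gene shown but Rrn3, which lies within a range of 7.12 to 8.33 throughout.

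In crypts the comparisons of Rb and TKO with WT gave no calls among members. Rb against WT crypts gave 0 calls among members (median -0.19), as among all 18193 genes (0%), although 3.90% of all genes had an unadjusted p under 0.05. Without WT crypts 3 and Rb crypts 2 the median was -0.52, again with 0 members called, and 1 member had an unadjusted p under 0.05 on all arrays. TKO against WT crypts also gave 0 (median 0.09, or -0.03 without WT crypts 3 and Rb crypts 2), where 4.73% of all genes were called in either direction. At an unadjusted p under 0.05 it gave 5 members and 19.7% of all genes. Nhp2 came nearest, with 11.58, 11.87 and 11.37 in TKO crypts above 10.88, 10.99 and 10.65 in WT crypts, a difference of 0.77 ± 0.23 with an adjusted p of 0.0546. QKO against TKO crypts gave 0 calls with a median of 0.13 (1.61% of all genes in either direction), and 2 members at an unadjusted p under 0.05, as for 17.3% of all genes.

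QKO crypts were higher than WT crypts in 5 of 36 members and lower in 0, with a median of 0.22. Over all genes 10.3% were called higher, a share not far from that among the members. The members called were Nip7, which in yeast acts in large-subunit assembly (0.70 ± 0.18), Rrs1 (0.90 ± 0.26), Tsr1 (0.70 ± 0.19), Nop14 (0.47 ± 0.15) and Nop10 (0.44 ± 0.15). Rrs1 read 10.29, 10.33 and 10.42 in QKO crypts, above all WT crypt arrays. When an array was left out, calls in either direction numbered 1 to 8. Without WT crypts 3 no member was higher and 1 was lower, without QKO crypts 2 only 1 was higher, and without QKO crypts 1 it was 2, while the 8 calls without Rb crypts 2 were 7 higher and 1 lower. Without WT crypts 3 and Rb crypts 2, 2 members were higher and 1 lower (median 0.11), and with sex as a covariate none was called. Against Rb crypts 12 members were higher and 1 lower in QKO (median 0.39), where 13.4% of all genes were called higher and 3.78% lower. Rrs1 had the largest rise, 1.34 ± 0.26 (2.53-fold, adjusted p = 0.0014), over Rb crypt levels of 8.93, 9.70 and 8.39. Nip7 and Bysl rose by 0.84 ± 0.18 and 0.77 ± 0.18, and Rrn3 by 0.53 ± 0.18. Nol6 fell by 0.51 ± 0.13, from 7.99, 8.03 and 7.69 in Rb crypts to 7.49, 7.43 and 7.25. That total of 13 was 5 without Rb crypts 3 (3 higher and 2 lower), 7 without QKO crypts 2, 18 without WT crypts 3 and Rb crypts 2 (median 0.58), 6 with sex as a covariate and 3 when only the groups compared were fitted. By Xist and Eif2s3y all Rb crypt arrays were female and all QKO crypt arrays male. Pancreatic acinar markers, foreign to crypts, were higher in QKO crypts in 3 of 3 against WT and against Rb, by medians of 3.05 and 3.16. Their mean was 9.03 and 9.02 on QKO crypts 1 and 3 but 5.11 on QKO crypts 2, against 4.33 to 4.52 in WT crypts and 4.53 to 4.58 in Rb crypts. Goblet cell markers were lower in 6 of 6 against WT (-1.27) and 5 of 6 against Rb (-1.27). The part of these markers was not tested.

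Whether the effect of a genotype differed between villi and crypts was tested directly. A larger difference here is a more positive one, to which a fall in crypts adds as much as a rise in villi. The Rb difference was larger in villi for 9 members and smaller for 0 (median 0.78, 4.12% of all genes), with Npm1 at 0.99 ± 0.22, the nucleolar protein Noc2l at 1.0 ± 0.22 and Ftsj3 at 1.17 ± 0.29. The TKO difference was larger in villi for 12 members and smaller for 0 (median 0.80, 2.69% of all genes), with Ftsj3 at 1.85 ± 0.29, Noc2l at 1.23 ± 0.22 and Ncl at 1.69 ± 0.32. The QKO difference was larger in villi for 5 (median 0.36, 2.87% of all genes), namely Ncl, Ddx21, Noc2l, Pes1 and Wdr43. All 5 had a lower mean in QKO crypts than in WT crypts. Further probe sets of Ncl gave 1.66 ± 0.34, 0.97 ± 0.41, 0.37 ± 0.22 and 0.34 ± 0.34. Of these only that at 1.66 was called among all probe sets. For Wdr43 the means were 8.62 in QKO crypts against 9.19 in WT crypts, and 8.11 in QKO villi against 7.73 in WT villi. For Rb the count was 2 without WT crypts 1, Rb crypts 3, WT villi 3 or Rb villi 3, 3 without WT crypts 2, 5 without Rb villi 2, 19 without Rb crypts 2 and 23 without both crypt arrays that go against their labels. For TKO it was 5 without TKO crypts 1, 6 without WT villi 3 or TKO villi 2, 15 without those crypt arrays and 23 with array weights. For QKO it was 6 without those crypt arrays, 0 without WT crypts 2 or WT villi 3, 1 without WT crypts 1, QKO crypts 3 or QKO villi 1, and 3 without QKO crypts 1, WT villi 1 or WT villi 2. Dividing-cell markers had larger differences in villi in 11 of 11 for Rb, 10 of 11 for TKO and 8 of 11 for QKO, and for QKO so did 5 of 7 T cell markers, while 3 of 3 acinar markers had smaller ones. Their part was not tested. Which members pass here is uncertain, while the medians lay above that of all genes.

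The rise in QKO villi was smaller than the sum of the rises in Rb and TKO villi. This departure from additivity on the log2 scale, QKO minus TKO minus Rb plus WT, was below 0 and called for 19 members and above 0 for 0, with a median of -0.94, where the median of all genes was 0.12 and 6.52% of all genes were called lower. It was largest in Ftsj3 (-1.77 ± 0.29, adjusted p = 0.00025), with Gar1 at -1.51 ± 0.30 and Npm1 at -1.09 ± 0.22. All 4 box C/D genes, 3 of 4 H/ACA genes, 6 of 10 large-subunit genes, 2 of 10 small-subunit genes and 0 of 3 RNA polymerase I genes were called. The count was 12 without Rb villi 3, TKO villi 1 or TKO villi 2, and 12 without QKO crypts 2 and QKO villi 3. Of other pathway genes 31 of 123 were called lower and 1 higher, led by Ruvbl2 (-1.53 ± 0.24). All 11 dividing-cell markers were called lower, with a median of -2.91, and 6 of 6 enteroendocrine markers higher, and their part was not tested. The Actb gap, a sign of RNA quality, averaged 1.12 in WT, 0.89 in Rb, 0.84 in TKO and 1.16 in QKO villi. On WT villi 2 alone it was 0.80. The part of RNA quality was not tested here either.

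Myc, the transcription factor with many targets in this pathway, followed the compartments. It read 9.80, 10.33 and 9.31 in WT crypts and 7.60, 7.66 and 7.28 in WT villi, a fall of 2.30 ± 0.29 (adjusted p = 3.3e-06). In villi it read 7.60, 7.80 and 8.14 in Rb, 8.51, 8.48 and 7.88 in TKO and 8.33, 8.06 and 7.56 in QKO. Its differences from WT villi, 0.33 ± 0.29, 0.77 ± 0.29 and 0.47 ± 0.29, were not called (adjusted p = 0.5, 0.11 and 0.3). In TKO crypts Myc read 8.91, 9.28 and 8.95, under every WT crypt array. The TKO minus WT difference of Myc was more positive in villi than in crypts by 1.54 ± 0.41 (adjusted p = 0.043). Lower values in TKO crypts as well as higher ones in TKO villi entered it. Mycl, a Myc relative, fell by 1.36 ± 0.22 from WT crypts to WT villi. It read 7.56, 7.42 and 7.52 in Rb villi, above the 6.84, 6.93 and 6.75 of WT villi, while TKO and QKO villi overlapped WT. Mycn, another relative, showed no such fall, with 6.76, 6.85 and 6.72 in WT crypts and 6.64, 6.68 and 7.13 in WT villi.

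Other probe sets of the same genes were read as well. Of the measured members 25 had more than 1 probe set, with 39 further probe sets, of which 23 had a mean above 6.39, the median of all values. Of all 39, 27 were called lower in villi of WT and 22 higher in TKO than in WT villi, and 35 and 29 had the sign of the gene's main probe set. Of the 23 brighter ones, 21 were called lower in villi of WT and 20 were called higher in TKO than in WT villi, and 23 and 22 had the sign of the gene's main probe set. A second bright probe set of Npm1 gave 1.24 ± 0.17 for TKO against WT villi, and further probe sets of Ncl gave 1.76 ± 0.24, 1.14 ± 0.29 and 1.01 ± 0.24, while a dim probe set of Ncl gave 0.00 ± 0.16. The other 4 probe sets of Polr1a, all dim, gave -0.29 to 0.15 there and none was called.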

How the data were processed

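RNA was measured on 24 arrays, 3 per group, grouped by the labels. The authors deposited log2 expression values for each probe set (2.29 to 14.9). How these were summarised and normalized is not given in sources used here, and they were not normalized again. The number of arrays limits the precision. Of 45101 probe sets, 34945 had 1 gene symbol in the platform annotation, 932 several, 9160 were unnamed here and 64 were controls. Each gene was read by its probe set with the highest mean.

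Differences were fitted with limma 3.58.1 in R 4.3.3 (1 mean per group over all arrays, intensity trend, residual df 16, prior df 4.86, 2-sided), with Benjamini-Hochberg adjustment over 18193 genes in each of 19 comparisons. The script was tested on simulated data. The members, gene lists, tests and naming rule were chosen with earlier results of these data known. That rule names 9 members throughout and, per comparison, those with the largest changes or smallest p. Of other pathway genes it names up to 3 with the smallest p. Sbds and genes printed for role counts were added after their values were seen.

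Replicates correlated at 0.979 to 0.994, and 0 pairs were identical. Deviations of same-numbered crypt and villus arrays correlated at 0.61, 0.55 and 0.64 in TKO and 0.55, 0.25 and 0.37 in QKO, so by the values the numbers pair there. In WT (0.01, 0.13 and 0.0) and Rb (0.06, -0.01 and -0.24) they do not. Alternatives were 14 settings and leaving out each array. Promoters came from RefSeq tables of GRCm38.p6, and protein sequences were not used here. Figures were drawn with matplotlib 3.10.9.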

Additional observations from a re-analysis of the deposited data

Results flagged for a closer look

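Members whose genotype effect differed between villi and crypts, by a test of that difference, numbered 9 for Rb loss, 12 for loss of E2f1 to E2f3 and 5 for loss of all 4 genes. For Rb the members with the smallest p were Npm1 (more positive in villi by 0.99 on the log2 scale), Noc2l (1.0) and Ftsj3 (1.17). For TKO they were Ftsj3 (1.85), Noc2l (1.23) and Ncl (1.69). For QKO the members were Ddx21 (0.96), Ncl (1.26, or 0.34 to 1.66 with its further probe sets), Noc2l (0.92), Pes1 (0.99) and Wdr43 (0.96).

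In villi the effect of Rb loss differed between tissue with and without E2f1 to E2f3 for 19 members, with Ftsj3 at -1.77, Npm1 at -1.09 and Gar1 at -1.51. The mean Actb gap also differed among these villus groups, and its part was not tested.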

How the results depend on the processing

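Over 19 comparisons, 14 settings and leaving out each array, 127 of 722 recounts of called members moved by more than 1.5 times, and the cause was not tested except where fewer arrays were fitted. Of 722 medians 1 moved by more than the spread between replicates (1 SD), that of Rb against WT villi (0.47 with probe sets averaged per gene). Within that spread the median went from -0.19 to between -0.52 and 0.01 for Rb, from 0.09 to between -0.05 and 0.20 for TKO and from 0.22 to between 0.11 and 0.32 for QKO against WT crypts, and from 0.39 to between 0.20 and 0.58 for QKO against Rb crypts. Of 8322 repeats of differences of named members 613 lost their call and 0 reversed. Counts in villi minus crypts went from 34 to 18 in Rb without WT crypts 3 and Rb crypts 2, and from 32 to 4 in TKO without TKO crypts 3 and villi 3. Rb against WT villi went from 15 to 25 with only the groups compared and to 25 with array weights, and QKO against WT villi from 21 to 10 with sex as a covariate. QKO against Rb villi went from 1 to 0 under quantile normalization, centring, every probe set, only the groups compared, array weights, sex, and without QKO crypts 2 and villi 3. QKO against TKO villi went from 2 to 1 with every probe set, to 0 with only the groups compared, with sex or without those QKO arrays, and to 4 without TKO crypts 3 and villi 3. TKO against Rb villi went from 4 to 2 with the mean of probe sets and to 18 with array weights. In crypts, TKO against WT went from 0 to 1 without dim genes, with every probe set, with only the groups compared or without those QKO arrays, and to 3 with array weights. QKO against WT crypts went from 5 to 3 under quantile normalization, centring, every probe set and without WT crypts 3 and Rb crypts 2, to 8 without dim genes, to 0 with sex and to 1 without those QKO arrays. QKO against Rb crypts went from 13 to 3 with only the groups compared, 6 with sex and 8 without those QKO arrays. For effects differing between compartments, Rb went from 9 to 4 under quantile normalization or sex, to 19 with array weights and to 23 without WT crypts 3 and Rb crypts 2. TKO there went from 12 to 23 with array weights, and QKO from 5 to 1 with the mean of probe sets and to 8 with array weights. The departure from additivity went from 19 to 12 without those QKO arrays. Leaving out each array gave 34 to 35 members in WT villi minus crypts, 18 to 34 in Rb, 8 to 33 in TKO and 34 to 35 in QKO. It gave 8 to 20 for Rb, 21 to 31 for TKO and 12 to 23 for QKO against WT villi, 0 to 1 for QKO against Rb, 0 to 5 for QKO against TKO and 1 to 6 for TKO against Rb villi. It gave 0 to 1 for TKO, 1 to 8 for QKO against WT crypts and 5 to 17 for QKO against Rb crypts. Effects differing between compartments ranged over 2 to 19, 5 to 16 and 0 to 7 for Rb, TKO and QKO, and the departure over 12 to 23. With the replicate block in TKO and QKO, 34 members were called in TKO villi minus crypts, 22 in QKO against WT villi and 19 for the departure, and no count moved by over 1.5 times. Brightness over background and 3 arrays per group limit all counts.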
